A study of Homo sapiens with 18 samples.

Results

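The p53 target genes described here were MDM2, MDM4, CDKN1A, GADD45A, BBC3, BAX, SESN1, ZMAT3 and TP53INP1, 9 of the 57905 Ensembl genes counted in every library. They were chosen by name, and each symbol matched 1 Ensembl ID. RNA came from BE(2)-m17 cells, a human neuroblastoma line, in 3 experiments. Each set 3 libraries of cells overexpressing ABCC1 against 3 of control cells with an empty vector. All cells carried the APP transgene vector pSBbi-Hyg-APP. The control cells also carried the empty vector pSBbi-Pur (labelled Puro), and the other cells carried pSBbi-Pur-ABCC1, which holds a codon-optimized ABCC1, an exporter of organic anions. Vectors were placed in the genome by a transposon, 14000000 cells were plated per well, and RNA was taken on day 4 with no antibiotics in the medium. The comparison asked which transcripts differed when ABCC1 was overexpressed. The first experiment used a kit for polyadenylated RNA, and the second and the third used a total RNA kit for small inputs, so levels were compared within an experiment. The study's methods describe weekly platings of each line, while the labels do not tie single libraries to them, so the p-values measure the spread between these libraries. Both repeats served as a check of the first experiment, and the study used cryopreserved cells for one and newly transfected cells for the other, where the vectors may sit at other places in the genome. The labels do not say which repeat is which.

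The transcription factor p53 is stabilized after DNA damage and other stress and then switches on genes that stop the cell cycle, repair DNA or start apoptosis. MDM2 and MDM4 bind p53 and hold it down, and MDM2 is itself a p53 target, which closes a feedback loop. CDKN1A encodes p21, which stops the cell cycle by inhibiting cyclin-dependent kinases. In neuroblastoma the p53 pathway is known to be disabled more often at relapse than at diagnosis, and the SK-N-BE(2) line from which BE(2)-m17 was cloned is known for a mutated p53. The transcript of p53 itself is not analysed here, and neither its protein nor its activity was measured.

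The libraries held from 8866994 to 57937653 read pairs counted on genes. Exogenous ABCC1 had between 51035 and 594404 read pairs in each library of ABCC1-overexpressing cells and between 0 and 15 in the control libraries, as labelled. Levels are given as CPM, read pair counts scaled to the TMM-normalized library size, or as CPM per kilobase of exon (CPM per kb). Of 10 neuroblastoma markers, 9 were between 5.03 and 2252 CPM per kb in the empty vector control cells. Of the 11 matched markers of blood, endothelial, epithelial, mesenchymal and glial cells, the highest was PDGFRB at 1.80, 2.49 and 6.30 CPM per kb in the 3 experiments.

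Background reads differed between the lines and bear on the weak genes. They were measured over 346 olfactory receptor genes with at most 3 counts in each library of the first experiment. In the first experiment the mean was 0.00153 CPM per kb in the controls and 0.000790 with ABCC1. In the second it was 0.577 ± 0.0867 (SD, n = 3) against 0.301 ± 0.147, and in the third 1.58 ± 0.0926 against 1.25 ± 0.153. The choice kept 346 of 356 olfactory receptor genes and held the level of the first experiment low. That level is therefore not compared with the repeats. In each repeat the mean was higher in the control cells than in ABCC1-overexpressing cells. Protein-coding genes took 96.0 to 97.0% of the counts in the first experiment and 71.8 to 80.3% in the others.

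On GRCh37, the build used for counting, MDM2 lies at chr12:69201956-69239214 and MDM4 at chr1:204485511-204542871. The arrest genes CDKN1A and GADD45A lie at chr6:36644305-36655116 and chr1:68150744-68154021, and BAX at chr19:49458072-49465055, all on the plus strand. BBC3 at chr19:47724081-47736023, SESN1 at chr6:109307640-109416022 and ZMAT3 at chr3:178735011-178790067 are on the minus strand. Each value is a count over all exons of the gene. MDM2 shares 9.79% of its exon bases with an antisense gene and 5.48% with a pseudogene, both at 0 counts, and 1.66% with CPM, a gene for carboxypeptidase M.

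MDM2 and CDKN1A are the textbook p53 targets, so the sequence before a start site of each is shown. Both stretches are the 250 bases before a RefSeq start on GRCh38.p14, a newer build than the one used for counting, and run 5′ to 3′ on the plus strand. For MDM2 the internal promoter at chr12:68808767-68809016 is given, and capitals mark a pair of 10-base p53-type elements with 2 mismatches to the consensus, at -94 to -75 from the start. For CDKN1A the stretch is chr6:36678464-36678713, and capitals mark GC boxes, the letters GGGCGG on either strand.
MDM2: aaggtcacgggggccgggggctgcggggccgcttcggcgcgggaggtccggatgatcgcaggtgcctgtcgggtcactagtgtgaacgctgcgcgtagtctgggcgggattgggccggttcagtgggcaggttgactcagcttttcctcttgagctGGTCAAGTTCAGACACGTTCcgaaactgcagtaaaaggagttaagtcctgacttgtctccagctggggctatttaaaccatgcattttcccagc
CDKN1A: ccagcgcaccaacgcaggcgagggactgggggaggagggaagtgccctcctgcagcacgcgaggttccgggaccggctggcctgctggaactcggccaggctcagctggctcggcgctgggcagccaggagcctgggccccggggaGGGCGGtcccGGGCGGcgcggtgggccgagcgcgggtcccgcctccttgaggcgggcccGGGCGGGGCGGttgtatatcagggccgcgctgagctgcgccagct
A p53-type pair with at most 2 mismatches was in 0.242% of 35116 RefSeq promoter windows of this length. The CDKN1A window held 4 GC boxes, the last of which shares a base with the one before it, and 7.63% of windows held at least 4. No p53-type pair was found in the CDKN1A window, which says nothing about elements farther away. These matches describe the sequence only.

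The order of the levels in the empty vector control cells was led by CDKN1A and GADD45A and closed by TP53INP1 in each experiment. In the first experiment CDKN1A stood at 81.1 ± 3.45 CPM per kb (SD, n = 3), above 97.1% of the 13621 protein-coding genes tested. GADD45A, a stress sensor that takes part in DNA repair and growth arrest, followed at 31.02 ± 2.48. MDM2 at 11.1 ± 0.406, BAX at 8.63 ± 0.604, MDM4 at 5.25 ± 0.141 and BBC3 at 4.29 ± 0.467 came next. SESN1 at 2.88 ± 0.0602, ZMAT3 at 2.69 ± 0.131 and TP53INP1 at 1.64 ± 0.152 were the lowest. Each neighbour in this order was separate in all libraries, except SESN1 and ZMAT3, whose libraries overlapped.

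Among controls of the second experiment GADD45A at 13.7 ± 2.39, CDKN1A at 13.1 ± 3.55 and MDM4 at 12.96 ± 1.13 CPM per kb overlapped one another. MDM2 followed at 7.68 ± 1.21, and the other members lay between 1.11 and 3.07. In the third experiment CDKN1A at 28.3 ± 5.95 overlapped GADD45A at 18.9 ± 5.12, and both lay above MDM4 at 13.7 ± 0.223 and MDM2 at 9.15 ± 2.24. The other members lay between 1.79 and 4.91. MDM4 therefore stood above MDM2 in both repeat experiments and below it in the first, where another kit was used.

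Background made up a large share of the weak members in the repeat experiments. In the empty vector control cells of the third experiment the olfactory receptor level equalled 88.4% of the level of TP53INP1, 70.6% of ZMAT3, 62.4% of SESN1, 36.5% of BBC3 and 32.2% of BAX. For MDM2 the figure was 17.3%, for MDM4 11.6%, for GADD45A 8.37% and for CDKN1A 5.58%. In the second experiment it was 52.2% for TP53INP1 and 4.22 to 33.9% for the rest. It was under 0.1% for each of the 9 members in the first experiment, whose low counts were used to choose the olfactory receptor genes.

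**Figure D1:**
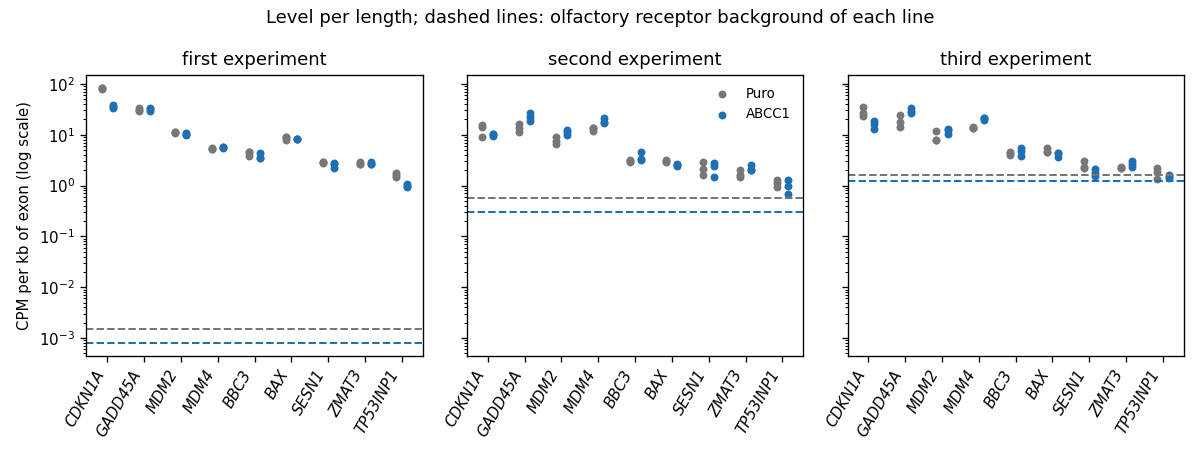
CPM per kb of exon (log scale) of the 9 members in each library of the 3 experiments, grey for empty vector control cells (Puro) and blue for ABCC1-overexpressing cells. Dashed lines are the mean olfactory receptor background of each line, which was 1.58 and 1.25 in the third experiment, where TP53INP1 and SESN1 lay close to it.

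The empty vector control cells of the second and the third experiments were made with the same kit, and 4 of the 9 members differed between them in a joint fit, against 15.7% of all genes tested. All 4 were lower in the third: MDM2 (log2FC -0.58 ± 0.17, SE), MDM4 (-0.77 ± 0.15), SESN1 (-0.64 ± 0.20) and ZMAT3 (-0.45 ± 0.16), with edgeR adjusted p-values of 0.00820, 8.62e-05, 0.0146 and 0.0424. No direction can be drawn from this, because it rests on the scaling, and the repeats also differ in being cryopreserved or newly transfected cells. Of all genes that passed, 9.85% were higher in the third experiment with TMM and 61.7% with RLE size factors. With RLE only CDKN1A, higher by 0.71 (adjusted p = 3.44e-04), and MDM4, lower at -0.32 (adjusted p = 0.0496), passed among the members.

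CDKN1A fell with ABCC1 in the first and the third experiments. In the first, the empty vector control libraries held 252, 243 and 231 CPM and the ABCC1-overexpressing libraries 104, 99.5 and 113. The groups did not overlap, and the control level was 2.29-fold that of ABCC1-overexpressing cells (log2FC -1.20 ± 0.05, SE, n = 3 per group, edgeR adjusted p = 7.70e-08). In the third, the control libraries held 69.3, 104 and 80.3 CPM and the others 38.6, 55.9 and 48.2. Each ABCC1-overexpressing library was again below each control library, and the control level was 1.78-fold higher (log2FC -0.83 ± 0.17, edgeR adjusted p = 0.00103). Both calls held in every alternative fit, with log2FC between -1.25 and -1.09 in the first experiment and between -1.31 and -0.64 in the third.

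CDKN1A did not pass in the second experiment. The control libraries held 27.1, 47.3 and 42.5 CPM and the ABCC1-overexpressing libraries 27.9, 30.4 and 31.5. The first control library lay below all 3 of the others, and the remaining controls lay above them. The log2FC was -0.38 (95% interval -0.75 to -0.01, edgeR adjusted p = 0.219), and it ranged from -0.56 without control library 1 to -0.21 without control library 2.

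GADD45A rose with ABCC1 in both repeat experiments and not in the first. In the second, the control libraries held 23.2, 33.1 and 28.5 CPM and the ABCC1-overexpressing libraries 54.9, 38.2 and 45.8, with no overlap. It was 1.64-fold higher (log2FC 0.71 ± 0.17, edgeR adjusted p = 0.0362). In the third, the control libraries held 29.8, 50.6 and 36.7 CPM and the others 55.9, 60.4 and 69.9, also without overlap. It was 1.59-fold higher there (log2FC 0.67 ± 0.17, edgeR adjusted p = 0.0105). The groups overlapped in the first experiment, at 69.9, 59.9 and 62.8 CPM against 70.7, 66.0 and 60.6 (log2FC 0.03, 95% interval -0.12 to 0.19, edgeR adjusted p = 0.750).

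The GADD45A call held in 9 of 14 alternatives in each of these experiments. With the olfactory receptor level of each library as a covariate, the log2FC was 0.40 in the second experiment (adjusted p = 0.901) and 0.27 in the third (adjusted p = 0.595). In the second, the call was lost without control library 1 or 3 or ABCC1 library 1 or 2 (log2FC 0.58 to 0.84, adjusted p 0.0905 to 0.184). In the third, it was lost without control library 1 or 3 or ABCC1 library 2 or 3 (log2FC 0.54 to 0.69, adjusted p 0.0615 to 0.219). The olfactory receptor level moved with the line in these experiments, and its part in the result was not tested.

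The p53 inhibitors did not pass in any experiment. MDM2, the ubiquitin ligase that marks p53 for degradation, held 92.3, 85.7 and 89.1 CPM in the control libraries of the first experiment and 84.8, 82.2 and 80.4 in the others. Every ABCC1-overexpressing library was lower, by a small margin (log2FC -0.11 ± 0.04, edgeR adjusted p = 0.0696). In the second experiment the controls held 59.9, 72.03 and 52.8 CPM and the others 99.02, 92.5 and 80.1. Here every ABCC1-overexpressing library was higher (log2FC 0.56, 95% interval 0.21 to 0.90, edgeR adjusted p = 0.0802). In the third the controls held 62.7, 94.1 and 63.3 CPM and the others 81.3, 98.9 and 102. The second control library reached into the range of the ABCC1-overexpressing libraries (log2FC 0.36, 95% interval 0.01 to 0.71, edgeR adjusted p = 0.307), and without it MDM2 passed (log2FC 0.59, adjusted p = 0.00293), the one alternative of 14 in which it did. With the background covariate its log2FC there was -0.079 (adjusted p = 0.924).

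MDM4, the partner of MDM2 that masks the activation domain of p53, was higher in every ABCC1-overexpressing library of all 3 experiments, though it did not pass. The control libraries of the first experiment held 58.6, 61.6 and 59.1 CPM and the others 62.5, 65.9 and 65.4 (log2FC 0.11 ± 0.05, edgeR adjusted p = 0.0736). In the second they held 156, 154 and 133 against 247, 201 and 190 (log2FC 0.53, 95% interval 0.16 to 0.89, edgeR adjusted p = 0.105). In the third they held 153, 158 and 156 against 225, 239.5 and 238 (log2FC 0.59, 95% interval 0.22 to 0.96, edgeR adjusted p = 0.0663).

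MDM4 passed in 7 of 14 alternatives in the third experiment, among them DESeq2 (adjusted p = 9.55e-05), at least 10 counts in every library (adjusted p = 0.0186) and the fits without control library 2 (adjusted p = 0.00175) or ABCC1 library 1 (adjusted p = 0.0322). In the second experiment MDM2 passed in 3 of 14 alternatives and MDM4 in 2 of 14. DESeq2 called both inhibitors there, MDM2 with an adjusted p of 0.0129 and MDM4 with 0.0110, and 8.0% of all genes. The joint edgeR fit of all 18 libraries also called both (adjusted p = 0.0202 and 0.0161), and MDM4 in the third (adjusted p = 0.00493). With the background covariate the log2FC in the second was 0.35 for MDM2 (adjusted p = 0.921) and 0.29 for MDM4 (adjusted p = 0.957), and in the third 0.52 for MDM4 (adjusted p = 0.0737). In the first, MDM4 passed without ABCC1 library 3 (log2FC 0.10, adjusted p = 0.0483).

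The apoptosis members BBC3, which encodes PUMA, and BAX, the pore-forming effector at the mitochondrion, did not pass in any experiment. The log2FC of BBC3 was -0.18, 0.29 and 0.11 in the 3 experiments (edgeR adjusted p 0.245 to 0.834). Its libraries lay between 9.20 and 17.7 CPM. It passed in the first experiment only without ABCC1 library 3 (log2FC -0.31, adjusted p = 0.00379). The log2FC of BAX was -0.06, -0.27 and -0.23 (edgeR adjusted p 0.472 to 0.639). Its groups overlapped in the first experiment, and in the others every ABCC1-overexpressing library was lower, at 6.19 to 7.01 against 7.63 to 8.22 CPM in the second and 9.62 to 11.5 against 11.6 to 14.4 in the third. The 95% intervals of BAX reached from -0.76 to 0.22 in the second experiment and from -0.63 to 0.17 in the third, so differences of that size were not excluded.

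TP53INP1, which promotes autophagy and cell death under stress, fell in the first experiment. The control libraries held 9.20, 10.2 and 8.53 CPM and the ABCC1-overexpressing libraries 5.39, 6.04 and 5.45. The groups did not overlap, and the control level was 1.66-fold that of ABCC1-overexpressing cells (log2FC -0.73 ± 0.09, edgeR adjusted p = 1.44e-04). The call was lost in 1 of 13 alternatives, the joint fit of all 18 libraries (log2FC -0.63, adjusted p = 0.0777). That fit shared the spread but also tested 46225 genes in place of 16995 and scaled the libraries together, and it moved the log2FC of the genes named here by 0.09 to 0.11 in the first experiment, so a loss under it cannot be put down to the spread alone. In the repeat experiments the groups overlapped (log2FC -0.15 and -0.26, edgeR adjusted p = 0.784 and 0.643), at levels near the background given above. With the background covariate the log2FC was -0.63 in the second (adjusted p = 0.906) and -0.03 in the third (adjusted p = 0.987). The gene on the opposite strand, NDUFAF6, spans the same region but shares 0 exon bases with it.

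SESN1, a sestrin that acts against oxidative stress and on mTORC1 signalling, and ZMAT3, a zinc finger protein that binds RNA, did not pass in any experiment. The log2FC of SESN1 was -0.18, 0.03 and -0.49 (edgeR adjusted p = 0.148, 0.955 and 0.219). In the third experiment its control libraries held 15.7, 11.6 and 11.6 CPM and the others 10.8, 9.19 and 7.76, with no overlap. It passed in the first experiment only without ABCC1 library 1 (log2FC -0.27, adjusted p = 0.0421), and 7.09% of its exon bases are shared with an antisense gene that counting without strand cannot part from it. The log2FC of ZMAT3 was 0.04, 0.35 and 0.23 (edgeR adjusted p 0.240 to 0.630).

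**Figure D2:**
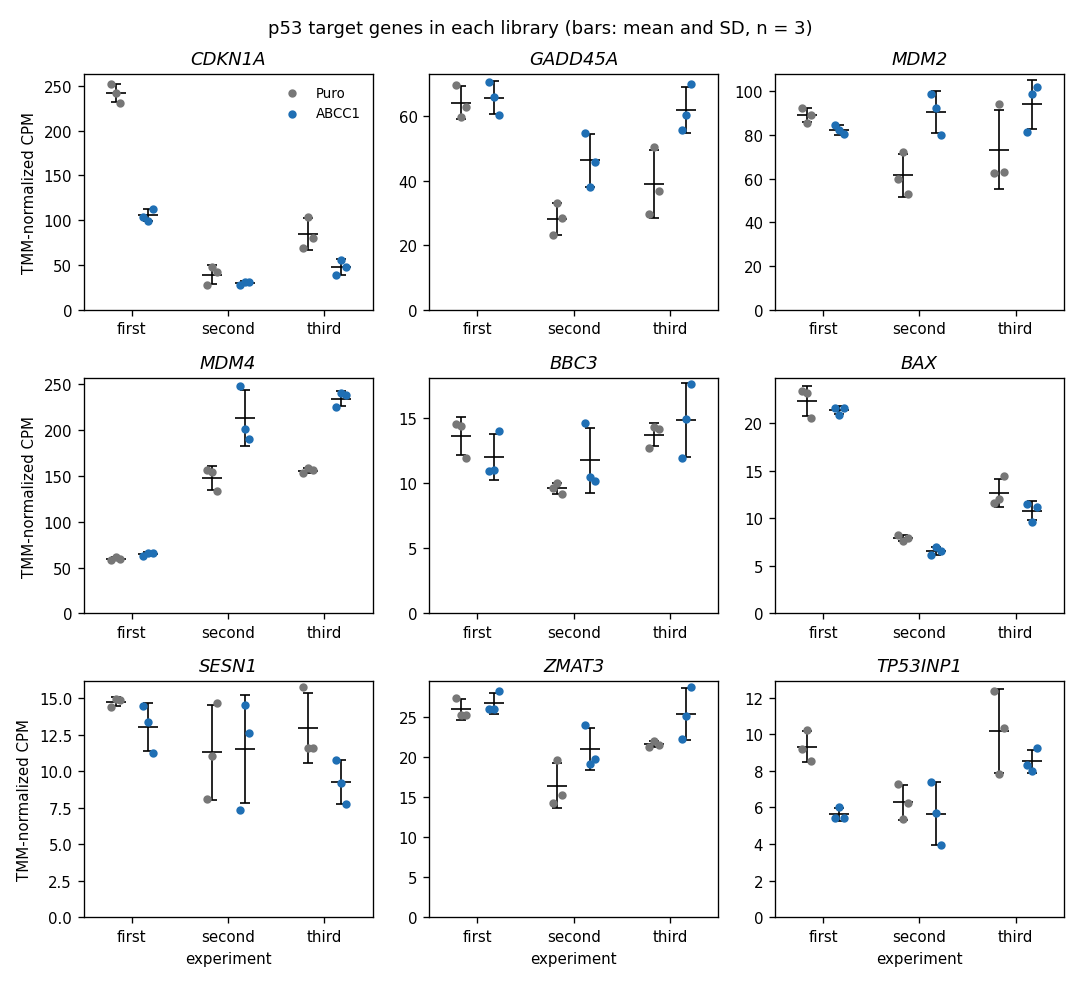
TMM-normalized CPM of the 9 members in each library by experiment, grey for empty vector control cells (Puro) and blue for ABCC1-overexpressing cells, with the mean and SD of 3 libraries. CDKN1A was lower with ABCC1 in the first and the third experiments, at means of 105 against 242 and 47.6 against 84.6, and MDM4 was higher in every ABCC1-overexpressing library without passing the test.

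Counted over the members, 2 of 9 passed in the first experiment, both lower, where 37.6% of the 16995 genes tested passed and 19.7% passed as lower. Counted in either direction, that share of the members was below the share of all genes. In the second, 1 member passed, higher, against 1.7% of 34091 genes, or 1.25% as higher and 0.458% as lower. In the third, 2 passed, 1 higher and 1 lower, against 2.8% of 36509 genes, or 2.03% as higher and 0.767% as lower. Groups did not overlap for 4 members in the first experiment, 1 higher and 3 lower, against 50.4% of all genes (24.7% higher and 25.7% lower). They did not overlap for 5 in the second, 4 higher and 1 lower, against 29.8% (13.5% and 16.4%), and for 6 in the third, 3 in each direction, against 19.5% (8.59% and 10.9%). The members were chosen with results of these data known, so no test of the list was made. Exact permutation tests of single members cannot go below p = 0.1 with 3 libraries against 3.

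The median log2FC of the members was -0.11, 0.29 and 0.11 in the 3 experiments, where the median of all genes was 0.01, -0.19 and -0.09. In the second experiment the scaling moved the median of all genes by 0.11 with RLE, 0.11 with DESeq2, -0.12 with at least 10 counts in every library and -0.14 with protein-coding genes only. The log2FC of GADD45A ranged from 0.57 to 0.83 over these scalings and passed in each, that of MDM2 from 0.41 to 0.67 and that of CDKN1A from -0.51 to -0.28, while SESN1 changed sign, from -0.10 to 0.12. The share of higher genes among those that passed was 73.1% with TMM, 83.0% with DESeq2, 72.2% with RLE, 44.4% with at least 10 counts and 49.5% with protein-coding genes. In the third experiment that share was 72.6% with TMM, 89.1% with DESeq2 and 82.9% with RLE.

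The experiments share no library, and the sign of the members was compared between them. It was the same for 8 of 9 members in the second and the third, where it was the same for 71.8% of the genes tested in both. Between the first and the second it was the same for 6 of 9, against 61.4% of genes, and between the first and the third for 7 of 9, against 65.4%. The log2FC of MDM2 and BBC3 was below 0 in the first experiment and above 0 in both repeats, but with the background covariate that of BBC3 was below 0 in both repeats (-0.087 and -0.22) and that of MDM2 in the third (-0.079).

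Whether the effect of ABCC1 differed between experiments was tested as an interaction over all 18 libraries. No member passed by edgeR, where 1.19% of 46225 genes did, and none passed by DESeq2. At an unadjusted p under 0.05 there were 3 members by edgeR, CDKN1A, GADD45A and MDM2, and 4 by DESeq2. The share of all genes at that threshold was not counted, and the 1.19% holds for adjusted p-values only. The edgeR adjusted p-values ran from 0.400 to 0.948. The pass of CDKN1A in 2 experiments and of GADD45A in 2 is therefore not shown to be a difference between experiments.

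**Figure D3:**
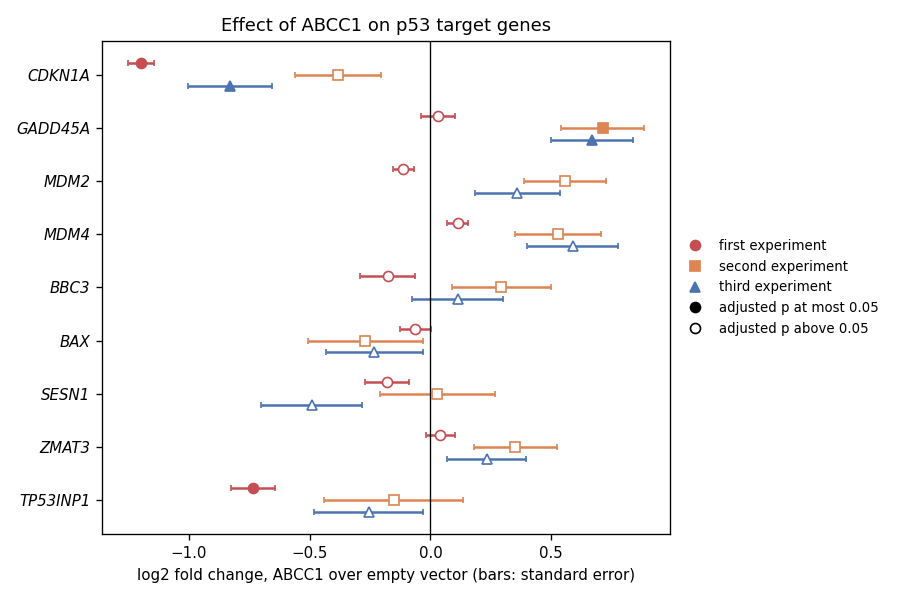
Log2FC of ABCC1-overexpressing over empty vector control cells for the 9 members in the first (circles), second (squares) and the third (triangles) experiment, with standard errors as bars and filled symbols where the adjusted p was at most 0.05. CDKN1A was below 0 in all 3 experiments (-1.20, -0.38 and -0.83) and GADD45A was at 0.03, 0.71 and 0.67.

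Beyond the members, 44 other p53 targets were followed in lists for arrest, apoptosis, repair and metabolism. In the first experiment 17 of the 41 tested passed, 7 higher and 10 lower, a share close to the 37.6% of all genes. In the second 1 of 44 passed, against 1.7% of all genes, and in the third 6 of 44, 4 higher and 2 lower, against 2.8%. Their median log2FC was -0.06, 0.10 and 0.02. In the joint fit of all 18 libraries, with its other gene set and scaling, 4 passed in the first experiment, all lower.

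SULF2, a secreted sulfatase that edits heparan sulfate, fell in the first and the third experiments. It went from 134 ± 6.05 to 48.7 ± 3.11 CPM (SD, n = 3) in the first (log2FC -1.45, edgeR adjusted p = 2.65e-08). In the third it went from 49.5 ± 11.3 to 30.1 ± 3.04 CPM (log2FC -0.72, edgeR adjusted p = 0.00370), a call lost without ABCC1 library 2 (log2FC -0.67, adjusted p = 0.0832) and in the joint fit (log2FC -0.64, adjusted p = 0.0944). In the second it was at log2FC -0.39 (edgeR adjusted p = 0.315).

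The death receptor TNFRSF10B, which binds the ligand TRAIL, fell from 55.5 ± 1.26 to 35.7 ± 0.741 CPM in the first experiment (log2FC -0.64, edgeR adjusted p = 2.86e-06). In the third it went from 29.6 ± 3.41 to 20.2 ± 1.55 CPM (log2FC -0.55, edgeR adjusted p = 0.0417), but that call was kept by only 4 of 14 alternatives, and it was at log2FC 0.34 in the second (edgeR adjusted p = 0.284). FAS, the receptor for FAS ligand, fell from 3.27 ± 0.393 to 0.947 ± 0.166 CPM in the first experiment (log2FC -1.76, edgeR adjusted p = 1.65e-05) and was at log2FC -0.91 and -0.45 in the others (edgeR adjusted p = 0.297 and 0.536). In the controls of those 2 experiments FAS stood at 0.738 and 1.39 CPM per kb, beside backgrounds of 0.577 and 1.58.

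TRIAP1, RAP2B and SERTAD1 were among the genes that rose. TRIAP1, a small protein that opposes apoptosis, rose from 20.2 ± 2.56 to 37.7 ± 2.57 CPM in the third experiment (log2FC 0.90, edgeR adjusted p = 1.06e-04), a call that held in every alternative. RAP2B, a small GTPase, rose in the second (log2FC 0.70, edgeR adjusted p = 0.0277) and the third (log2FC 0.57, edgeR adjusted p = 0.0396). Both calls of RAP2B were lost with the background covariate (log2FC 0.71 ± 0.24, adjusted p = 0.600, and 0.42 ± 0.20, adjusted p = 0.422) and without 4 of the 6 libraries in turn (adjusted p up to 0.142 and 0.260), and the call in the third also without a filter on low counts (adjusted p = 0.0556). SERTAD1, a regulator of cyclin-dependent kinase 4, rose in the first (log2FC 0.56, edgeR adjusted p = 0.00836, lost in the joint fit at log2FC 0.66 and adjusted p = 0.0870) and the third (log2FC 0.86, edgeR adjusted p = 0.0186), where its control level of 3.06 CPM per kb stood beside a background of 1.58, and the call there was lost with the covariate (adjusted p = 0.543) and without control library 3 or ABCC1 library 2 or 3 (adjusted p 0.0881 to 0.169).

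Cell cycle genes that are targets of the DREAM complex, which p21 allows to repress them, were followed in a list of 14. In the first experiment all 14 were lower and passed, with log2FC from -0.54 to -0.14 and a median of -0.34. Genes that passed as lower were 19.7% of all tested. In the joint fit, where the log2FC of CCNB2 was -0.38 and that of CDC20 -0.36 against -0.49 and -0.46, 0 of the 14 passed. In the second experiment none passed by edgeR, 6 had an unadjusted p under 0.05, none passed by DESeq2, and 4 passed with at least 10 counts in every library, where 3.55% of all genes did. In the third CCNB2, a mitotic cyclin (log2FC -0.70, edgeR adjusted p = 0.00488), and CDC20, an activator of the anaphase-promoting complex (log2FC -0.60, edgeR adjusted p = 0.0192), passed, and both were also lower in the first (-0.49 and -0.46). CDC20 lost its call in the third without any library but control library 2 (adjusted p 0.0688 to 0.156), with RLE (adjusted p = 0.0706) and in the joint fit (adjusted p = 0.0674), and CCNB2 without ABCC1 library 2 (adjusted p = 0.0846). CDKN1A itself was lower in the first and the third experiments, as given above.

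Neuroblastoma markers also moved with ABCC1 in the first and the third experiments. Of the 10 neuroblastoma markers 8 passed in the first experiment, 3 higher and 5 lower, and 3 in the third, against 37.6% and 2.8% of all genes. DBH and PHOX2A, of the noradrenergic lineage, were lower in the first (log2FC -0.83 and -0.48, edgeR adjusted p = 1.89e-05 and 0.00746) and the third (log2FC -0.63 and -0.68, edgeR adjusted p = 0.0454 and 0.0327). TH, tyrosine hydroxylase, was higher in both (log2FC 0.46 and 0.63, edgeR adjusted p = 0.00395 and 0.0138). In the second these 3 did not pass (log2FC -0.53, 0.03 and 0.54). Of the markers of other cells 4 could be tested in the first experiment, where PDGFRB (log2FC 0.73, edgeR adjusted p = 1.21e-05) and COL1A1 (0.83, edgeR adjusted p = 0.0302) were higher and MBP (-2.33, edgeR adjusted p = 0.00103) was lower. COL1A1 and MBP were weak there, at means of 0.773 and 0.541 CPM in the controls and 1.33 and 0.115 with ABCC1. In the third 1 of 10 passed, PTPRC (-0.73, edgeR adjusted p = 0.0193), whose control level of 1.93 CPM per kb stood beside a background of 1.58. The median log2FC of these markers was -0.85 in the second experiment, with 5 of 10 at an unadjusted p under 0.05, and COL1A1 was at -0.83 and -0.47 in the repeats. The 11 matched markers ran from 0.0253 to 2.49 CPM per kb in the controls of the second experiment. Background there was 0.577 in the controls and 0.301 with ABCC1, and its part in these values was not tested. These markers were named after their values were seen, and the part of the marker differences in the results above was not tested.

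Regulators of p53 were followed in a list of 14 kinases, ubiquitin ligases and cofactors. In the first experiment 4 passed, against 37.6% of all genes, and in the joint fit, which also differs in gene set and scaling, none of these 4 calls held. ATM, the kinase that signals DNA breaks, was higher (log2FC 0.34, edgeR adjusted p = 1.56e-04), as was the ubiquitin ligase COP1 (0.19, edgeR adjusted p = 0.00776). The deubiquitinase USP7 was lower (-0.22, edgeR adjusted p = 0.00119), as was the checkpoint kinase CHEK1 (-0.14, edgeR adjusted p = 0.0490). These 4 were named after their values were seen. In the second none passed by edgeR, with 5 at an unadjusted p under 0.05 and 5 passing by DESeq2, which called 8.0% of all genes there. In the third none passed by edgeR, with 3 at an unadjusted p under 0.05 and 3 passing by DESeq2, which called 4.26% of all genes there.

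**Figure D4:**
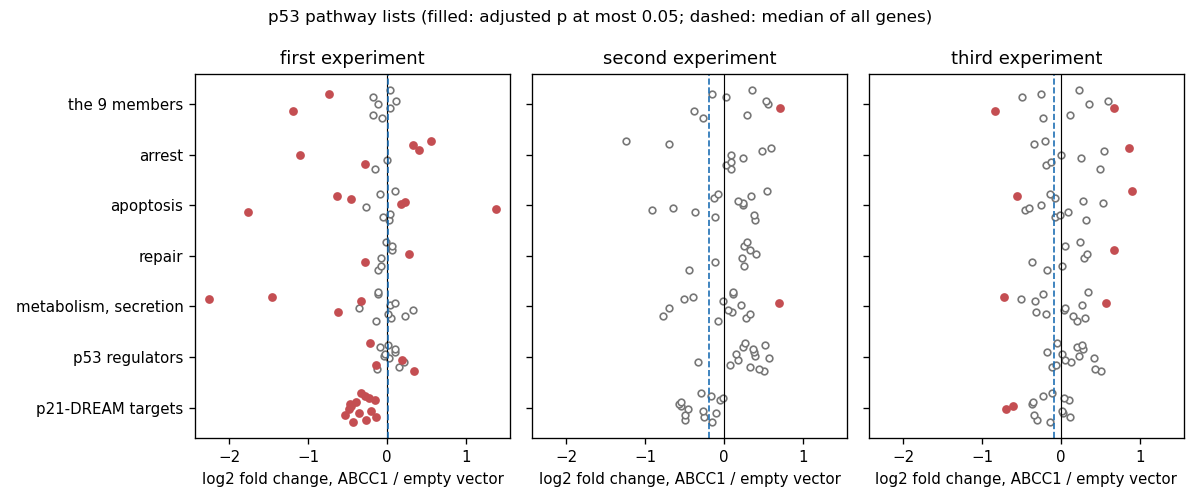
Log2FC of every tested gene of the members, the 4 lists of other p53 targets, the p53 regulators and the p21-DREAM targets in the 3 experiments, filled where the adjusted p was at most 0.05, with the median of all genes as a dashed line. All 14 p21-DREAM targets were filled and below 0 in the first experiment, 0 in the second and 2 in the third.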

How the data were processed

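The authors aligned the reads to GRCh37 with STAR 2.7.3a, counted read pairs on the exons of each Ensembl gene with featureCounts (Subread 2.0.0) without regard to strand, and deposited raw counts, which are the unit of all 18 tables. The sources disagree on the kit of the first experiment, and the one in the study's methods was used. Each experiment was fitted alone with edgeR 4.0.16 under R 4.3.3 (filterByExpr, minimum count 10, TMM, robust quasi-likelihood test, two-sided), without the 92 spike-ins. The 6 vector rows were fitted but left out of the Benjamini-Hochberg adjustment and of all counts of genes. A gene passed at an adjusted p of at most 0.05. The share of all genes at an unadjusted p under 0.05 was not counted, so counts of list genes at that threshold stand without one. The interaction came from a joint fit of 18 libraries. CPM used TMM library sizes, and levels per kb used the exon lengths deposited by the authors. Gene symbols were matched by Ensembl ID. The level of 1 lineage marker is not reported here. Standard errors were taken from the test statistic, and the scripts were tested on simulated data. Total counts of 8866994 to 57937653 per library set the precision, and they cover counting error only. Libraries of a group differed beyond counting noise (chi-square per degree of freedom 1.49 to 22.7). The members, lists and alternatives were chosen with earlier results of these data known. Genes of the other lists were named where they passed in the same direction in at least 2 experiments (single regulators and lineage markers were named after their values were seen), and besides from each experiment the 3 passing p53 targets with the largest absolute log2FC at a mean of at least 1 CPM. Alternatives were DESeq2 1.42.0, RLE, other filters, the joint fit of 18 libraries (shared spread, gene set and scaling), the background covariate, the replicate block, each library left out and, chosen after seeing the data, protein-coding genes only. The alternatives for named genes of the other lists, p21-DREAM targets and regulators were also added after seeing the data.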

Additional observations from a re-analysis of the deposited data

How the results depend on the processing

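The third experiment had the fewest counts, 8866994 to 13332413 per library, and background lies close to TP53INP1, SESN1 and ZMAT3 there. With 3 libraries per group, single libraries decided several calls. Of the alternative values of a log2FC, 480 kept direction and side of the threshold, 49 lost the call, 16 gained one and 14 changed sign. In the joint fit of all 18 libraries, which changed the spread, the gene set and the scaling at once, the counts that passed were 1 member, 4 other targets, 0 DREAM targets and 0 regulators in the first experiment, 3, 2, 4 and 4 in the second, and 3 members, 1 DREAM target and 2 regulators in the third. DESeq2, which called 8.0% of all genes in the second and 4.26% in the third, gave 3 members, 4 other targets and 5 regulators in the second and 3 regulators in the third. Without a filter there were 2 members, 2 other targets and 1 regulator in the second. With at least 10 counts in every library, where 3.55% and 6.25% of all genes passed in the second and the third, there were 4 DREAM targets in the second and 1 regulator in the third. With protein-coding genes only (2.86% and 10.4%), 4 DREAM targets passed in the second and 2 regulators in the third, and with RLE 1 DREAM target in the third. With the background covariate there were 0 members and 0 other targets in the second and 1 member in the third. For ABCC1 against the control, the share of all genes that passed was not counted in some fits. These were the joint fit, the fit without a filter, the covariate and the replicate block. Their counts for the members and lists, here and elsewhere, therefore cannot be set against all genes. Between control cells of the second and the third experiment, 2 members passed with DESeq2, with RLE and with at least 10 counts. Of 46225 genes tested there, 6806 passed as higher in the third and 3833 as lower with DESeq2. With RLE these were 5813 and 3616, and with at least 10 counts 3077 and 4073 of 14773, so many genes besides the members passed. The cause of these shifts in the counts was not tested.

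Leaving out 1 library gave 2 to 4 members, 13 to 21 other targets, 12 to 14 DREAM targets and 3 to 6 regulators in the first experiment. In the second it gave 0 to 1 members, 0 to 1 other targets and 0 to 1 DREAM targets. In the third it gave 1 to 4 members, 2 to 8 other targets, 0 to 2 DREAM targets and 0 to 5 regulators. For the control cells it gave 1 to 5 members, and for the interaction 0. Of the 48105 to 49062 genes tested in the control comparison, 5472 to 7472 passed as lower in the third and 221 to 1825 as higher. The share of all genes that passed was not counted for the other fits that left out a library. It cannot be told from them whether a changed count went with the calls over all genes. The 4 members of the first experiment came without ABCC1 library 3, which differed from the other ABCC1 libraries by a chi-square per degree of freedom of 16.1 and 21.5 against 1.49 between those. In the third, 4 members and 5 regulators came without control library 2.

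Sign changes, in values that did not pass, were as follows. In the joint fit, which moved the log2FC of named genes by a median of 0.10 in the first experiment, BAX was at 0.038 there. Leaving out 1 library gave GADD45A -0.024 to 0.095 and ZMAT3 -0.0032 to 0.080 in the first, SESN1 -0.16 to 0.28 and TP53INP1 -0.38 to 0.095 in the second, and BBC3 -0.025 to 0.30 in the third. SESN1 in the second was at -0.080 with at least 10 counts and -0.10 with protein-coding genes. With the covariate BBC3 was at -0.087 in the second and -0.22 in the third, and MDM2 at -0.079 in the third.

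Same-numbered libraries of the lines correlated at a mean of -0.09, -0.09 and 0.05 in the 3 experiments, so the numbers were not taken to pair them. With the replicate block the members that passed were 2, 1 and 3, MDM4 being the addition in the third (log2FC 0.59, adjusted p = 0.0106), and 1 regulator passed there. It changed no other member call in the comparisons of ABCC1 with the control within an experiment. For the control cells of the second and the third experiment the block lies within experiments, so its coefficient compares only the libraries numbered 1 and is not used. Baseline levels kept within 1 SD under RLE for 24 of 27 values and as TPM for 2 of 27, since that unit rescales every level.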

Other observations

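The genes whose pattern was most like that of CDKN1A over the 18 libraries, by the correlation of log2 CPM after each experiment's mean was removed, were FUT1 (r = 0.976, Spearman rho 0.965), TOX3 (r = 0.972, rho 0.942) and PCDH9 (r = 0.967, rho 0.903), among 12216 genes compared. FUT1 encodes a fucosyltransferase, TOX3 a transcriptional regulator and PCDH9 a protocadherin. For MDM2 they were IREB2, an iron regulatory protein (r = 0.967, rho 0.930), NKIRAS2, an inhibitor of NF-kappaB signalling (r = 0.967, rho 0.926), and ALDH18A1, an enzyme of proline synthesis (r = 0.962, rho 0.915). These are descriptions with no test, since the libraries share the 2 lines and the depth of their experiment, and 18 points from 6 groups follow the groups.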
